A study of Gallus gallus with 6 samples.

Results

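miR-2954 is a microRNA (miRNA) whose gene lies on the avian Z sex chromosome, and 2 of the 1215 names in the table of testicular miRNAs belong to it. The members were chosen by name: the species prefix and the ending that marks length or base changes were dropped from each name, and every remaining miR-2954 entry was kept, without candidates that carry only a serial number. This left gga-miR-2954, listed under its chicken name, and tgu-miR-2954-5p, listed under its zebra finch name, each on 1 of the 1302 lines. The libraries came from testes of Cobb500 breeder cocks, a meat-type breed, at 40 weeks of age. In the A group the feed held 10 g of Astragalus polysaccharide (APS, a plant extract used as a feed additive) per kg, and in the C group birds ate the same kind of corn and soybean feed without it. Small RNA was sequenced from 3 libraries of each group, and the question put to the data was whether the miRNAs of the testis differed with the diet. Each library is described as a separate testis, so the p-values below measure the spread between these birds and their libraries together.

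miRNAs are short RNAs cut from the 2 arms of a hairpin, the 5p and the 3p arm, and they repress messenger RNAs that pair with their seed, bases 2 to 8. Cocks carry a pair of Z chromosomes and hens carry a single one beside a W, and birds compensate incompletely for this difference in dose. miR-2954 is known from chicken and zebra finch as a miRNA with much higher levels in males than in females, in gonads and in other tissues, and its predicted targets are rich in Z-linked genes. All 6 libraries here came from males, so no difference between the sexes could be examined.

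The mature sequences below are those of the table, in DNA letters and 5′ to 3′, with the seed in capitals. They are shown because the counts of the members that follow are those listed under these 2 sequences. The study's matching allowed length variation at both ends, so reads of other lengths may be counted under them.
gga-miR-2954: cATCCCCAttccactcctagcagt
tgu-miR-2954-5p: tGCTGAGAgggcttggggagagga
Both are 24 nt long. The table's ending for gga-miR-2954 marks 2 bases more at the 3′ end than the 22 nt database entry, and that of tgu-miR-2954-5p marks 1 base more at the 5′ end than its 23 nt entry. This reading of the endings was checked on the 42 base names that occur with several endings, and in all 42 the length after removing the ending was a single value. The extra base at its 5′ end means that the seed of tgu-miR-2954-5p shown here begins 1 base earlier than that of the database entry. No other name in the table has either seed at bases 2 to 8, and no other name shares a run of 12 bases with either sequence. The seed of tgu-miR-2954-5p also occurs at a shifted position near the 5′ end of 2 other names. gga-miR-2954 is rich in cytosine, with 11 of its 24 bases, and tgu-miR-2954-5p is rich in guanine, with 13 of 24. The arms were laid against each other without gaps at the offset with the most Watson-Crick pairs, without use of the hairpin sequence. There they form 12 Watson-Crick and 2 G:U pairs over 22 facing positions, with 2 unpaired bases at the 3′ end of each. The unpaired bases of gga-miR-2954 are the ones its ending marks as added. The gene of gga-miR-2954 is annotated by RefSeq (assembly GRCg7b) as MIR2954 on chromosome Z, inside the interval of XPA, a gene of nucleotide excision repair. Coordinates are not given because none of the sources used here names the build behind the table.

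The miRNA counts summed to 576706, 721279 and 632750 in A replicates 1, 2 and 3 and to 497276, 743175 and 533087 in C replicates 1, 2 and 3. A replicate 2 and C replicate 2 had the highest totals of their groups. In these libraries the 3 most abundant names also took the largest shares, 29.6% in A replicate 2 and 31.9% in C replicate 2, against 22.3% to 26.4% in the other 4 libraries. Counts were therefore compared as CPM, the count per 1000000 tested counts of the library after trimmed-mean (TMM) scaling, and other scalings are given beside the result they change. CPM is not divided by length because each read covers a whole miRNA, whatever its length. In bulk tissue, fewer cells that contain a miRNA and less of it in each cell cannot be told apart.

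gga-miR-2954 was one of the most abundant miRNAs of the cock testis. Its raw counts were 19731, 20468 and 24077 in A replicates 1 to 3 and 19568, 23122 and 20118 in C replicates 1 to 3, 127084 in all. This was 3.42%, 2.84% and 3.81% of the miRNA counts in the A libraries, against 3.93%, 3.11% and 3.77% in the C libraries. The lowest shares of both groups were those of replicate 2. By count it ranked 9, 11 and 9 in the A libraries and 8, 9 and 8 in the C libraries, and 8 by its mean over all 6. It carried its reads on a single line, whereas several of the other abundant miRNAs are divided over names and lines.

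In CPM, gga-miR-2954 stood at 31759, 31667 and 34906 in A replicates 1 to 3, against 36576, 35850 and 37113 in C replicates 1 to 3. Every A library lay below every C library, with A replicate 3 closest to the C libraries. The means were 32778 ± 1844 CPM in A and 36513 ± 634 CPM in C (SD, n = 3 libraries each). The fit put the log2 fold change at -0.16 (standard error 0.11) with a 95% interval of -0.40 to 0.09, a fold of 0.898 with an interval of 0.757 to 1.06. Its unadjusted p was 0.186 and its adjusted p was 0.704 in edgeR's quasi-likelihood test with Benjamini-Hochberg adjustment over the 800 names tested. The difference therefore did not pass the test, and the interval includes no difference. Over all names, edgeR called 0% of the 800 at an adjusted p under 0.05 and 6.75% (54 names) at an unadjusted p under 0.05. DESeq2 also called 0 after adjustment and had 26 names at an unadjusted p under 0.05, and limma on the log2 of the authors' normalized values called 0 with 55 (pseudocount of 1) or 53 (pseudocount of 0.1) such names. Both members were among the 800 names that passed the filter on low values. Groups lying apart with A lower, as for gga-miR-2954, was found for 8.75% (70) of the names tested.

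**Figure D1:**
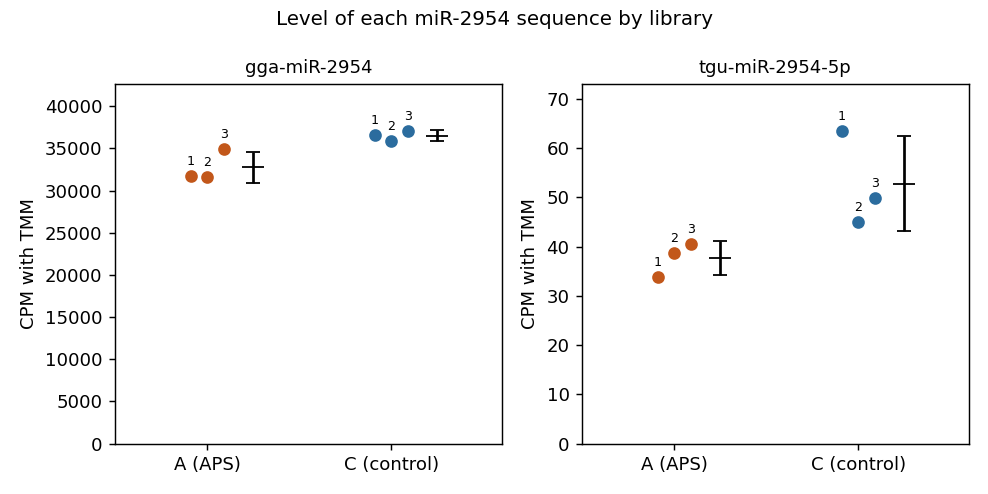
CPM of gga-miR-2954 (left) and tgu-miR-2954-5p (right) in each library, with A libraries left of C libraries, the replicate number above each point, and the mean and SD of 3 libraries as a bar. The A libraries lie at 31667 to 34906 CPM and the C libraries at 35850 to 37113 CPM for gga-miR-2954, and at 33.8 to 40.6 CPM and 45.0 to 63.6 CPM for tgu-miR-2954-5p.

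The gap between the groups depended on how the libraries were scaled, although the mean stayed lower in A under each of the 5 scalings. With size factors in place of TMM the scaled counts were 19364, 19202 and 21633 in A and 21110, 21639 and 22540 in C, so that A replicate 3 lay above C replicate 1. On the authors' normalized scale A replicate 3 (21344) again lay above C replicate 1 (21019). As a rate over all miRNA counts, without TMM, the values were 34213, 28377 and 38051 in A and 39350, 31112 and 37738 in C, and A replicate 3 lay above both C replicate 2 and C replicate 3. As a rate over valid reads, the library totals given by the study, they were 3237, 3495 and 3680 in A and 3388, 4372 and 3736 in C. The mean in A was 0.898 of that in C with TMM and between 0.906 and 0.930 under the other 4 scalings. The exact two-sided permutation p was 0.1 with TMM, the smallest that 3 libraries against 3 allow, and 0.2 to 0.6 under the others.

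**Figure D2:**
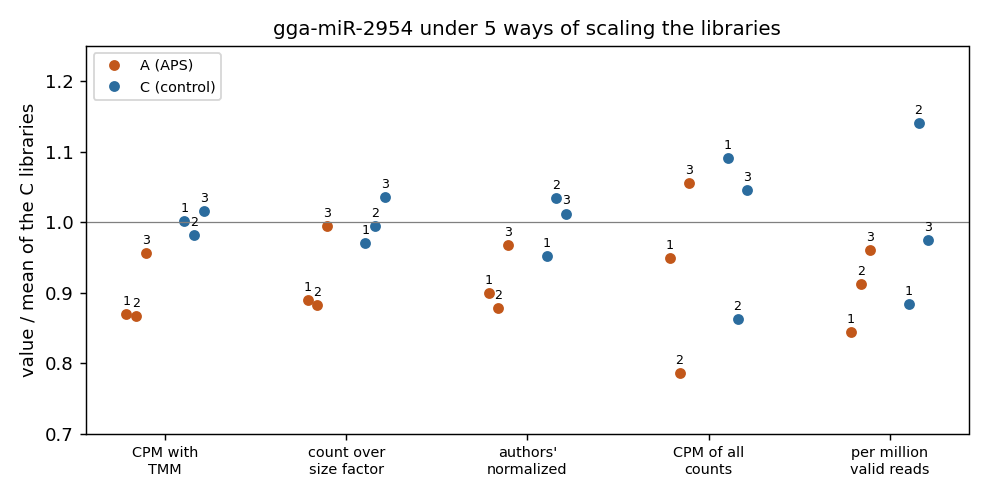
gga-miR-2954 in each library divided by the mean of the C libraries (vertical axis, no unit) under 5 scalings, with A points left of C points and replicate numbers above them. The groups lie apart with TMM (A at 31667 to 34906 CPM, C at 35850 to 37113 CPM) and overlap under the other 4.

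tgu-miR-2954-5p, the other arm, was rare. It had 21, 25 and 28 counts in A replicates 1 to 3 and 34, 29 and 27 counts in C replicates 1 to 3, 164 in all. In CPM this was 33.8, 38.7 and 40.6 in A, against 63.6, 45.0 and 49.8 in C. Every A library again lay below every C library, with C replicate 1 the highest of the 6. The means were 37.7 ± 3.50 CPM in A and 52.8 ± 9.64 CPM in C (SD, n = 3 libraries each). The fit put its log2 fold change at -0.48 (standard error 0.27), with a 95% interval of -1.10 to 0.14, an unadjusted p of 0.113 and an adjusted p of 0.686 in edgeR. The groups of tgu-miR-2954-5p also lay apart with size factors, with the authors' normalized values and over valid reads, and they overlapped as a rate over all miRNA counts. With TMM, 8.75% (70) of the names tested lay apart with A lower, and for the other scalings this share was not counted. It ranked between 235 and 269 by count in the 6 libraries.

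Counting error alone differs greatly between the arms. For gga-miR-2954 it comes to 0.644% to 0.715% of a library's count (the square root of the count, as a percent of it), while the libraries varied with a coefficient of variation (CV) of 6.90% in CPM. For tgu-miR-2954-5p counting error comes to 17.1% to 21.8% and the CV over the libraries was 23.2%. The CV was thus 9.65 times the highest counting error for the abundant arm and 1.06 times for the rare arm. These errors cover the counting of reads only, since reads without molecular identifiers are not independent molecules.

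The 3p arm far exceeded the 5p arm in every library. The ratio of counts was 940, 819 and 860 in A replicates 1 to 3, against 576, 797 and 745 in C replicates 1 to 3, and the lowest A ratio lay just above the highest C ratio. On the log2 scale, with 0.5 added to each count, the ratio was 9.74 ± 0.10 in A and 9.43 ± 0.25 in C (SD, n = 3 libraries each), a difference of 0.31 (two-sided exact permutation p = 0.1, the smallest possible). It rested in part on 1 library, since without C replicate 1 the difference was 0.17. The 5p arm made 0.106%, 0.122% and 0.116% of the reads of both arms in A and 0.173%, 0.125% and 0.134% in C. The exact (Clopper-Pearson) 95% intervals of these shares, 0.0658% to 0.162% in A replicate 1 and 0.120% to 0.242% in C replicate 1, overlapped even between the lowest and the highest library. The sum of the arms was 32815 ± 1847 CPM in A and 36566 ± 637 CPM in C (SD, n = 3 libraries each), and followed gga-miR-2954, which makes nearly all of it.

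Such a one-sided use of a hairpin was shared with some other abundant miRNAs but not with all. The lesser arm held 0.0440% of the counts of both arms in gga-miR-26a, against 43.7% in gga-miR-199. Among 63 hairpins with both arms in the table and at least 100 counts, 62 with 2 chicken names and miR-2954 with its pair of species names, the lesser arm held from 0.00302% to 45.6% of the counts, with a median of 1.27%. In miR-2954 it held 0.129%, rank 10 from the lowest. In 24 of the 63 the 3p arm was the higher one, as in miR-2954. By the counts of both arms, 5 of the hairpins exceeded the 127248 of miR-2954. This number depends on the names. The 5p sequence shared by gga-miR-30a and gga-miR-30e is divided between 2 hairpins, and miR-143 (307626 counts), listed under names of other species, is not among the 63. let-7a, with gga-let-7a-5p at a mean of 39428 CPM, is also absent, because no chicken 3p name was matched to its 5p name. Arms listed under names of other species were joined only for miR-2954, so either arm of other hairpins may be understated or missing. This bears on the count of 24 and on the rank. gga-let-7g, for example, stood at rank 9 and among the 24 with 0.154 counts for its 5p name, against 134 for its 3p name.

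**Figure D3:**
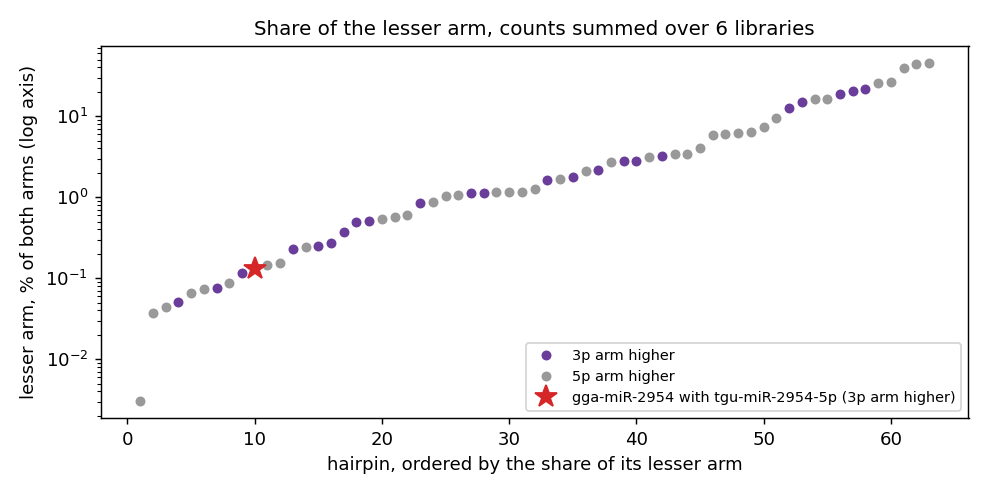
Share of the lesser arm in the counts of both arms (vertical log axis, percent, 6 libraries summed) for 63 hairpins ordered by that share (horizontal axis, rank), coloured by which arm is higher, with miR-2954 as a star. miR-2954 lies at 0.129%, rank 10, below the median of 1.27%.

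gga-miR-2954 was the most abundant 24 nt name of the table, ahead of gga-miR-30c-5p (105571 counts), a member of the widely expressed miR-30 family. By sequence it came next to the one that the 5p arms of gga-miR-30a and gga-miR-30e share, with 193181 counts over both names. That sequence had 36261, 39857 and 37310 counts in A replicates 1 to 3, against 22762, 31171 and 25820 counts in C replicates 1 to 3, and is part of the 24 nt total below. gga-miR-2954 made 22.3%, 21.7% and 26.4% of the counts of all 24 nt sequences in A replicates 1 to 3, against 30.5%, 27.5% and 29.0% in C replicates 1 to 3. The A libraries lay below the C libraries in this share (two-sided exact permutation p = 0.1). The share needs no scaling between libraries, but it depends on the 24 nt total as well as on gga-miR-2954. Raw counts of gga-miR-2954 averaged 21425 in A and 20936 in C. How many other 24 nt names lay apart in this way was not counted. The 24 nt sequences together made 15.3%, 13.06% and 14.4% of all counts in A, against 12.9%, 11.3% and 13.03% in C. Their share was thus higher in every A library, but A replicate 2 and C replicate 3 were nearly equal (two-sided exact permutation p = 0.1, the smallest possible). The share of gga-miR-2954 in all counts was 3.35% ± 0.487 in A and 3.61% ± 0.437 in C and overlapped. A length of 24 nt was uncommon among the names, 11.5% of the lines. All lengths here are those of the listed sequences, not of single reads. Of the 249 chicken mature names tested, 68 had a longer 3′ end than their database entry and 15 had the ending of gga-miR-2954, 2 bases more.

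In order of mean CPM, gga-miR-2954 stood at rank 8 of 800 with 34645 CPM, between let-7f-5p and miR-148a-3p. The 5 names next above it were miR-26a-5p, miR-21-5p, miR-202-5p (a miRNA known from gonads), let-7a-5p and let-7f-5p (members of the let-7 family of differentiated cells), with means of 65655, 61077, 51846, 39428 and 38025 CPM. Each of these 5 was above gga-miR-2954 in all 6 libraries. The distance to the nearest of them, let-7f-5p, was small: let-7f-5p had 35782 ± 1931 CPM in A and 40268 ± 2802 CPM in C (SD, n = 3 libraries each). Below it, gga-miR-148a-3p had a mean of 34266 CPM and lay above gga-miR-2954 in 2 of the 6 libraries, as did gga-miR-125b-5p (31160 CPM) and gga-miR-30c-5p (28543 CPM). The libraries with miR-148a-3p above gga-miR-2954 were A replicates 2 and 3, and it lay below in every C library. A difference in level between these 2 names was not tested. The next 2 names, the 5p arms of gga-miR-30a and gga-miR-30e, share 1 sequence and each holds an equal part of its reads, 26052 CPM, below gga-miR-2954 in all 6 libraries. With names of 1 sequence joined, gga-miR-2954 ranked 9, and with every line taken alone it ranked 6.

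**Figure D4:**
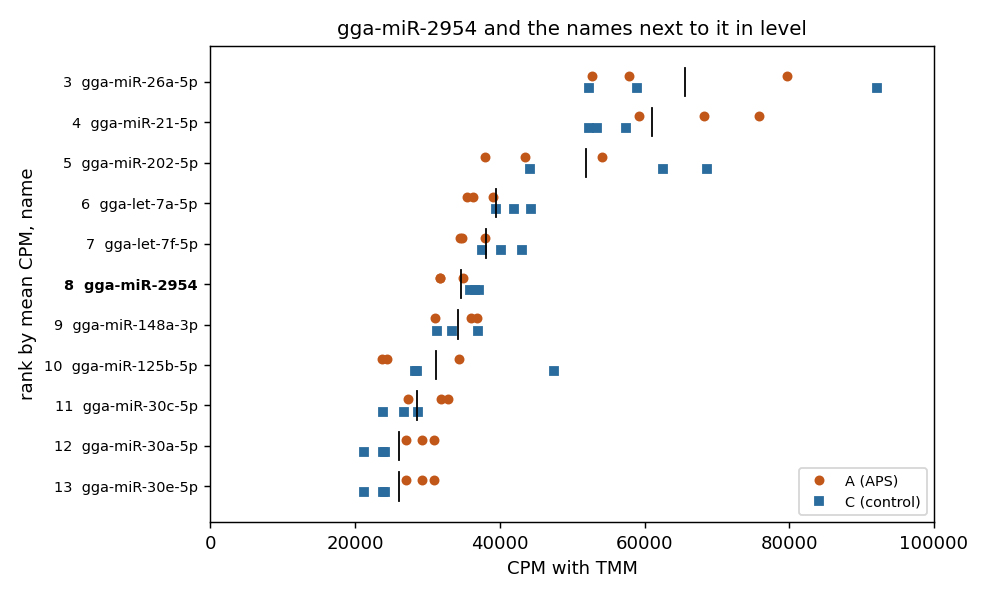
CPM (horizontal axis) of gga-miR-2954 and of the 5 names next above and next below it by mean CPM, with A libraries as circles above C libraries as squares and the mean of 6 as a black line. gga-miR-2954 spans 31667 to 37113 CPM, a narrower range than that of miR-26a-5p, which spans 52386 to 92161 CPM.

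Among the 21 names with a mean of at least 10000 CPM, gga-miR-2954 had the next to lowest CV over the 6 libraries, 6.90%, after a let-7a-5p variant line with 6.47%. The median of the 21 was 13.8% and the highest was 36.1%, that of gga-miR-199-5p, a miRNA of connective tissue cells. The highest library of gga-miR-2954 exceeded the lowest by 1.17 times, against a median of 1.45 times. Its CV was similar with size factors (6.44%) and on the authors' normalized scale (6.37%). It was higher as a rate over valid reads (10.9%) and as a rate over all counts without TMM (12.5%). In the latter its highest library exceeded the lowest by 1.39 times, and its CV ranked 3 from the lowest of the 21.

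Among the chicken names with every listed copy on Z, most reads in these testes came from miR-2954. Of the 439 chicken names in the table, 420 matched a RefSeq miRNA gene, and 44 of them had every listed copy on chromosome Z. A further 16 names had copies on Z and elsewhere and were left out, as were names of other species. Reads from a copy that RefSeq does not list could not be told apart. gga-miR-2954 made 77.9%, 75.3% and 77.8% of the counts of the 44 names in A replicates 1 to 3, against 79.9%, 76.2% and 79.5% in C replicates 1 to 3. These shares overlapped, with means of 77.0% ± 1.5 in A and 78.5% ± 2.0 in C (SD, n = 3 libraries each), and a two-sided exact permutation p of 0.3. Its mean CPM was 8.48 times that of the next Z-linked name, gga-miR-31-5p.

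The Z-linked names after gga-miR-2954 were much less abundant, and among the next 5 the groups overlapped. gga-miR-31-5p had 3826, 4400 and 3943 CPM in A and 4006, 4228 and 4110 CPM in C. The genes that RefSeq lists for gga-miR-24-3p (1943 CPM), gga-miR-27b-3p (1912 CPM) and gga-miR-23b-3p (579 CPM) belong to 1 cluster, and gga-miR-1416-5p had a mean of 487 CPM. These 5 had log2 fold changes of -0.02, -0.08, -0.04, 0.14 and -0.25 in the order given, with adjusted p of 0.827 or more in edgeR. Of the 34 Z-linked names tested beside gga-miR-2954, 13 had a fitted value above 0 and 21 below 0. By edgeR 0 of them passed an adjusted p under 0.05, and 1 had an unadjusted p under that limit: gga-mir-7481-p3, at a log2 fold change of 1.08 (adjusted p = 0.682). Their median log2 fold change was -0.18, against -0.13 over all 800 names, of which 336 were positive and 464 negative. Among the 193 names with a mean of at least 100 CPM the median was -0.02.

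**Figure D5:**
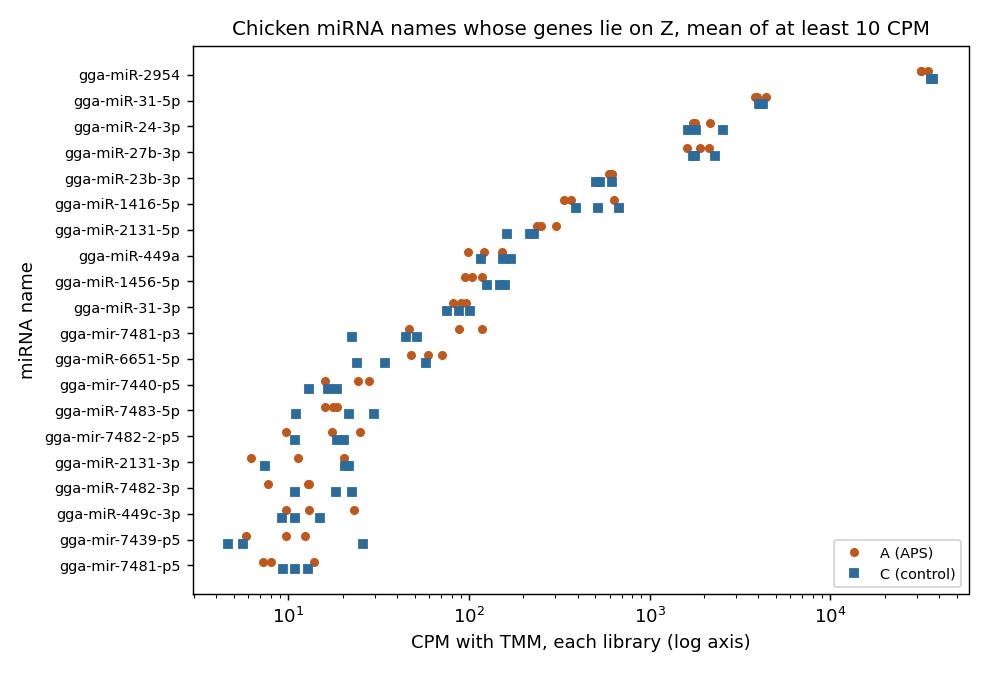
CPM in each library (horizontal log axis) of the 20 names with every RefSeq copy on chromosome Z and a mean of at least 10 CPM, with A libraries as circles above C libraries as squares. gga-miR-2954 lies at 31667 to 37113 CPM, well above gga-miR-31-5p at 3826 to 4400 CPM.

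Of the hairpins next to MIR2954 on Z, the names with values gave few reads. RefSeq places MIR1583 inside XPA as well, and MIR2131 and MIR7438 in the next genes, NCBP1, which encodes a subunit of the complex that binds the cap of messenger RNA, and TSTD2. miR-1583 was not among the 44 chicken names with every listed copy on Z, so no values are given for it. gga-miR-2131-5p had 188, 153 and 172 counts in A and 123, 104 and 118 counts in C, or 303, 237 and 249 CPM in A, against 230, 161 and 218 CPM in C. Its A libraries lay above its C libraries, the opposite direction to gga-miR-2954, with A replicate 2 only just above C replicate 1. The log2 fold change was 0.37 (standard error 0.22, unadjusted p = 0.116, adjusted p = 0.686 in edgeR) and did not pass the test. How many of all names lay apart in this direction was not counted. gga-miR-2131-3p had 54 counts in all and overlapped, and gga-miR-7438-5p had 1 count.

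The miRNAs numbered near miR-2954, a range of 50 numbers, are in large part hairpins named from the zebra finch, and 9 names of the table fell in this range with the members included. The other 7 were scarce. tgu-miR-2970-5p was the most abundant, with 138, 186 and 162 CPM in A and 228, 223.3 and 201 CPM in C, and its groups did not overlap either. It had a log2 fold change of -0.42 (standard error 0.20, adjusted p = 0.682 in edgeR). tgu-miR-2970-3p had 68 counts in the 6 libraries together, and the others had 18 or fewer. Of the 5 tested beside the members, 1 was positive and 4 were negative with a median log2 fold change of -0.33, against -0.13 over all names, and 0 had an unadjusted p under 0.05.

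The names most like gga-miR-2954 over the 6 libraries, by Pearson's r of log2(CPM + 1) among 192 other names with a mean of at least 100 CPM, were aca-miR-18a-5p (r = 0.98), gga-miR-218-5p (0.98), gga-miR-32-5p (0.97), gga-miR-33-3p (0.97) and gga-miR-15b-5p (0.92). These are the highest of 192 values over the same 6 libraries, which share their depth and scaling between names, and are given as a description. aca-miR-18a-5p, listed under a lizard name and known from the miR-17-92 cluster of dividing cells, had 1449, 1442 and 1567 CPM in A and 1725, 1674 and 1721 CPM in C. As for gga-miR-2954, A replicate 3 was the A library closest to the C libraries. gga-miR-32-5p had 2376, 2511 and 3363 CPM in A and 3847, 3256 and 3629 CPM in C, and there A replicate 3 lay above C replicate 2.

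Markers of the cell types that a piece of testis can hold were listed beside these values. The gonadal miR-202 summed to 38468 to 54789 CPM in A and 44788 to 69415 CPM in C over its 4 names. The list of germ and ciliated cells (miR-34b, miR-34c and miR-449, 10 names tested) summed to 1330, 1216 and 1189 CPM in A, against 1041, 822 and 906 CPM in C. The sum was thus higher in every A library, where gga-miR-2954 was lower, and it was carried by miR-34b, with 574, 533 and 618 counts in A, against 354, 337 and 333 counts in C. Not every member went this way: gga-miR-449a had 123 ± 26.8 CPM in A and 147 ± 27.6 CPM in C (SD, n = 3 libraries each), and its groups overlapped. The part of this list in the result was not tested. Smooth muscle names (miR-143 and miR-145) were highest in A replicate 2 (109139 CPM) and C replicate 2 (111168 CPM), and vessel names (miR-126) ranged from 3761 to 14648 CPM in A and from 5785 to 18109 CPM in C. White cell names summed to 1298 to 1577 CPM in A and 1055 to 2108 CPM in C, red cell names to 128 to 246 CPM in A and 127 to 295 CPM in C, and striated muscle names to 2748 to 4219 CPM in A and 3457.5 to 3887 CPM in C, all overlapping. The striated muscle sum came almost entirely from miR-499, with 12604 counts in all, against 524 for miR-133 and 17 for miR-1a. Of the defining markers, miR-206 of striated muscle matched no name in the table, miR-223 of white cells had 2 counts in all and miR-451 of red cells 12. No marker name had an adjusted p under 0.05, and 1, in the germ cell list, had an unadjusted p under 0.05 in edgeR. Without A replicate 2 and C replicate 2, a comparison chosen after these libraries were seen to stand apart, the log2 fold change of gga-miR-2954 was -0.13 and that of tgu-miR-2954-5p was -0.59, with adjusted p of 0.848 and 0.831 in edgeR.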

How the data were processed

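Total RNA of 6 testes was made into small RNA libraries and sequenced on an Illumina instrument. The authors processed the reads with ACGT101-miR (version 4.2 per the labels) and matched them to miRBase entries of chicken and other species. The paper states that 1 mismatch was allowed, but the endings of some names mark more base changes, as in the let-7a-5p variant line. A sequence listed under several names has equal parts of its reads under each. The deposited table gives estimated counts per line (87.3% of the values are whole within 0.001) and a normalized signal that the authors scaled between libraries. Its columns of fold changes, log2 ratios and p-values hold the authors' own comparison and were not used. No source used here names the genome build.

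Lines of 1 name were summed and rounded to whole numbers. Names whose normalized values averaged at least 1 in A or in C were tested (800, with 415 below this limit) in edgeR 4.0.16 (quasi-likelihood, TMM, all 6 libraries, no covariate, R 4.3.3) with Benjamini-Hochberg adjustment over all names. Standard errors were derived from the F statistics. The fit was tested on simulated data. Single values were compared by exact permutation tests in scipy 1.17.1. The alternatives were DESeq2 1.42.0, limma 3.58.1 on log2 of the normalized signal, other scalings and filters, and leaving out libraries. Z linkage came from RefSeq gene annotation (GRCg7b). The names described are the members, the 5 names next above and below in level, the 5 most alike, and the Z-linked names, at most 6 in detail. The members and the lists were chosen with earlier results of these data known. A count of 3 corresponds to 4.35 to 5.61 CPM. Titles of the A libraries carry the letter T in the labels. The labels and the published methods differ in the number of birds, the RNA kit and the instrument.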

Additional observations from a re-analysis of the deposited data

How the results depend on the processing

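gga-miR-2954 and tgu-miR-2954-5p kept a negative log2 fold change, and an adjusted p above 0.05, in all 17 alternatives run for each. For gga-miR-2954 the value ran from -0.18 to -0.13 with 1 library left out and from -0.17 to -0.10 in the other alternatives. For tgu-miR-2954-5p it ran from -0.55 to -0.32 and from -0.59 to -0.42. In 1 of these alternatives, the test stated by the study, the unadjusted p of tgu-miR-2954-5p was under 0.05 (0.0334). The number of names called stayed 0 with 36 to 64 names at an unadjusted p under 0.05 when 1 library was left out. When low values were not filtered, edgeR called 15 of 1159 names, neither member among them. The log2 fold change of the sum of the arms ran from -0.20 to -0.12, with exact permutation p of up to 0.4. The difference in the log2 ratio of the arms ran from 0.17 to 0.41, lowest without C replicate 1. Its highest p was 0.25, from a sign-flip test that paired libraries by replicate number. gga-miR-2954 ranked 6 by single lines and 9 by distinct sequences.

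Same-numbered libraries of the groups were not treated as pairs in the main fit. Their deviations from the group means correlated at 0.12, 0.43 and -0.03, and A replicate 3 correlated best with C replicate 1 (0.36). With 3 libraries a group, these correlations cannot decide whether same-numbered libraries shared a batch. With the replicate number as a block the log2 fold changes were -0.16 and -0.47, and edgeR called 0 names (63 at an unadjusted p under 0.05, against 54). The sign-flip p of the sum and of the ratio was 0.25, the smallest that 3 pairs allow. The 95% interval of tgu-miR-2954-5p, a fold of 0.468 to 1.10, was wide, with 21 to 34 counts a library.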
